A study of Mus musculus with 9 samples.

Results

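The macrophage genes examined here are 9 genes that mark macrophages resident in a tissue or serve their survival: the growth factor gene Csf1, its receptor gene Csf1r, and Adgre1, Cd68, Mrc1, Aif1, C1qa, C1qb and C1qc. They were chosen by name, as the rows of these genes among the 43539 genes with usable values in the deposited expression table, and all 9 were found, each under 1 identifier. Expression was measured by RNAseq in 9 libraries from mouse embryos at E14.5, 3 from the cranial vault of MCAGF8 embryos, 3 from that of control embryos and 3 from the cranial base of control embryos, and values are FPKM, counts of fragments scaled to the length of the transcript and the size of the library. All embryos came from a cross of Msx2-Cre with CAGF8 mice on a mixed, outbred background. CAGF8 is an Fgf8b gene in the Rosa26 locus behind a Stop cassette, so the control embryos, which the labels call wildtype, carry the unrecombined allele as well and differ from the MCAGF8 embryos in lacking Cre. Msx2-Cre is active in the ectoderm of the head, and the skin was peeled off before the vault tissue was taken, which was meant to leave the tissue under it. Epidermal RNA remained, at 349 to 882 FPKM summed over 8 epidermal genes in the MCAGF8 vault against 9.43 to 85.5 FPKM in the control vault. The cartilaginous cranial base was collected from control embryos once the brain had been removed. Each library is a pool of 3 of the 9 tissue samples of its group, so the error given below is the spread between 3 pools, and which embryos went into which pool is not stated. Both control tissues came from control embryos, so vault and base pools may share embryos, while the fit below took all 9 libraries as independent.

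Macrophages of the embryo come from yolk sac and fetal liver progenitors and settle in every developing tissue, where they clear dying cells and shape vessels and skeleton. They depend on the receptor tyrosine kinase CSF1R, which binds CSF1 and IL34, 2 ligands made by the surrounding stromal and epithelial cells, and osteoclasts, the cells that resorb bone, arise from the same lineage under CSF1 and RANKL. C1QA, C1QB and C1QC are the chains of C1q, the recognition part of the first complement component, and in most tissues macrophages are their main source.

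The promoters of C1qb, C1qc, Cd68, Mrc1 and Csf1 are shown because the C1q genes lie side by side and moved together over the libraries, while Cd68 and Mrc1 separated the tissues and Csf1 is the gene that macrophages respond to rather than express as a marker. Each is the RefSeq sequence of build GRCm38.p6 from 250 bases before to 50 bases after the gene's start, 5′ to 3′ on the strand of the gene, at chr4:136886151-136886450 (minus strand), chr4:136892865-136893164 (minus strand), chr11:69666121-69666420 (minus strand), chr2:14229164-14229463 (plus strand) and chr3:107760420-107760719 (minus strand). Capitals mark GAGGAA, a core of the sites bound by PU.1, the transcription factor of the myeloid lineage, or its reverse complement TTCCTC.
C1qb: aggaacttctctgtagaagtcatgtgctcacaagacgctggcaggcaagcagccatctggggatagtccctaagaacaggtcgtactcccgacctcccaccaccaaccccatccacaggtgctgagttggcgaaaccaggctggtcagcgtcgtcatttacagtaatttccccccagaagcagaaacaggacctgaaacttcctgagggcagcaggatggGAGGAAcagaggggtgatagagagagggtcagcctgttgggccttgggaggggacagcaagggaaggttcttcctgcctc
C1qc: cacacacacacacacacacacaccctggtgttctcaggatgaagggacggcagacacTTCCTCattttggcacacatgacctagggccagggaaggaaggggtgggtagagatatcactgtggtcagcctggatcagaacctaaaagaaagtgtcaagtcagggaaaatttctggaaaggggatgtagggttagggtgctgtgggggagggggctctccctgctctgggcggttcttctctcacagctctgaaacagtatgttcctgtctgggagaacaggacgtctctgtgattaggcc
Cd68: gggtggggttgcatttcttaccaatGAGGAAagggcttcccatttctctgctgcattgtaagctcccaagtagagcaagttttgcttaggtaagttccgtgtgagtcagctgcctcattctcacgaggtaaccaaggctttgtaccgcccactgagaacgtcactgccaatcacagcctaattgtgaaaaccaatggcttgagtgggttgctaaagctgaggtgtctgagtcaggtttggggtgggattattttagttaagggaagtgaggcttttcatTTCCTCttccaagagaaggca
Mrc1: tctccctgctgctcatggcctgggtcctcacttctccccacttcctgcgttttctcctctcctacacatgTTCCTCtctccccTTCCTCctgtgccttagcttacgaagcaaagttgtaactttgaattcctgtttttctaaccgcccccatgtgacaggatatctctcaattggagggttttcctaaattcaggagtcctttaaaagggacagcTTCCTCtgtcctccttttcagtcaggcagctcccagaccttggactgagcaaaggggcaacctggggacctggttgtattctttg
Csf1: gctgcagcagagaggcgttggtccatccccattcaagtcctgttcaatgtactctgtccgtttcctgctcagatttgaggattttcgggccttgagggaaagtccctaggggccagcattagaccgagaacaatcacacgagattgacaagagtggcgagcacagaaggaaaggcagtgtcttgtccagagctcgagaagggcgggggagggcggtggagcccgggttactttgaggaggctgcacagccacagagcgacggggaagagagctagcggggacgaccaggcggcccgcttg
The motif was found once in the windows of C1qb and C1qc, 2 times in that of Cd68, 3 times in that of Mrc1, and in these letters not in that of Csf1. With Aif1, 6 of the 9 genes had a promoter sequence, and 5 of these 6 windows held the motif, against 9289 of the 32851 promoter windows of 300 bases in the table, or 28.28%. A match of 6 letters is a description of the sequence and says nothing of binding in this tissue.

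The libraries had FPKM sums of 793249 to 1315982 and 16006 to 17281 genes at 1 FPKM or more, and the number of reads is not given, so the depth is unknown. The base pools were uneven. Cartilage genes, which should define them, were summed over 8 genes at 676, 8022 and 1178 FPKM in base pools 1 to 3, against 1603 to 2230 FPKM in the control vault, so base pools 1 and 3 held less cartilage RNA than the vault, and skeletal muscle genes reached 1642 to 11164 FPKM in the base. Results against the base are therefore also given without single base pools.

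All 9 genes were expressed in every library, from 4.16 FPKM for Adgre1 in control base pool 2 to 103 FPKM for C1qb in MCAGF8 pool 2. In each of the 3 groups, the C1q chains had the highest mean levels of the 9 genes and Adgre1 the lowest. The markers of the macrophage lineage were thus present in the vault tissue as well as in the cranial base. In bulk tissue, fewer macrophages and less RNA per macrophage cannot be told apart.

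**Figure D1:**
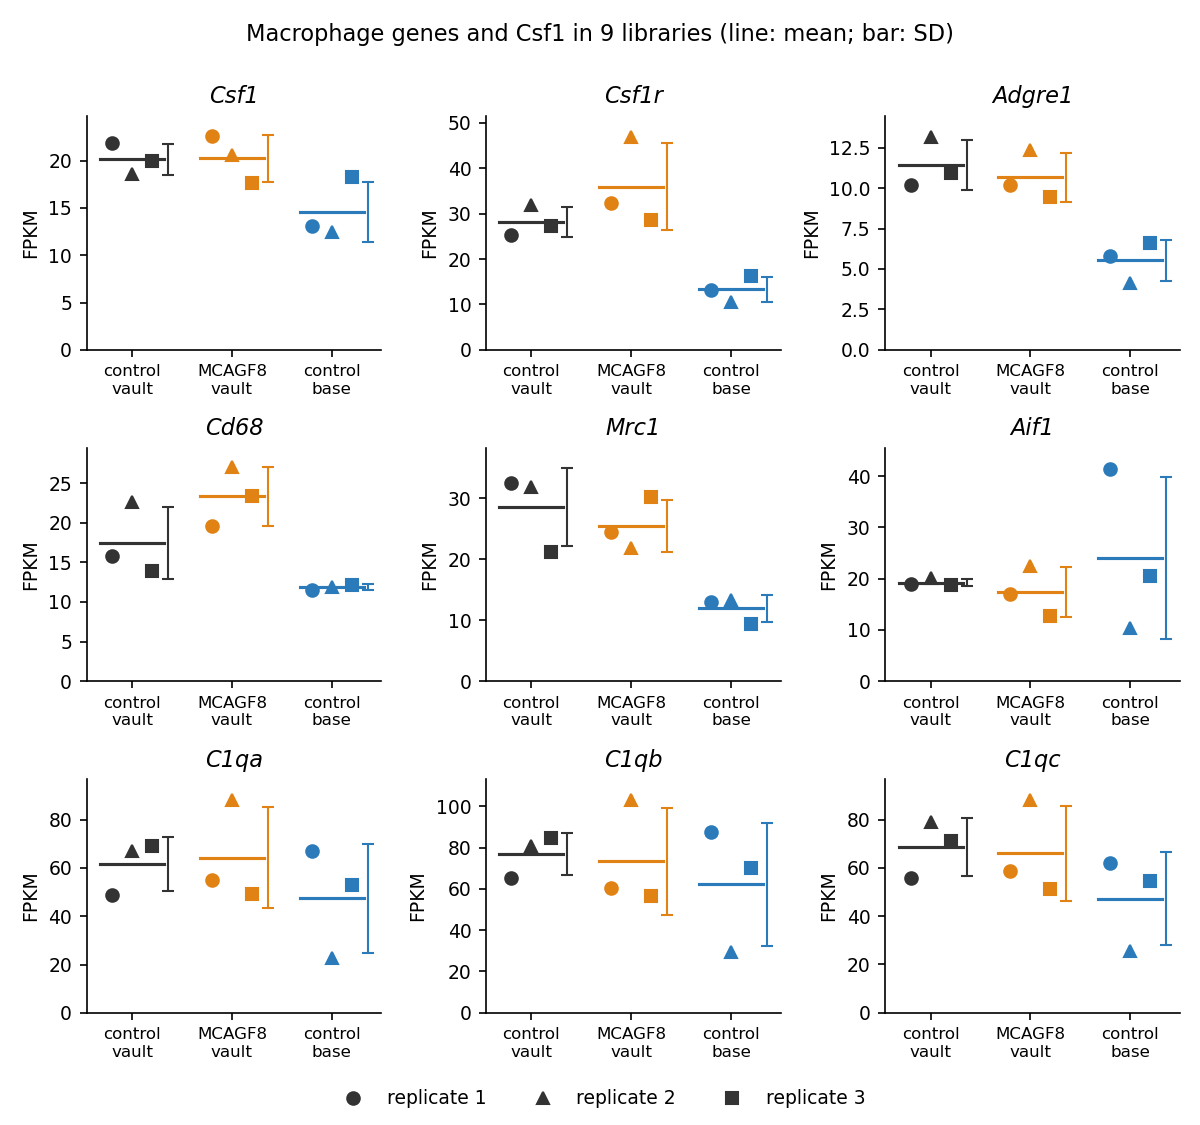
FPKM (vertical axis, linear from 0) of the 9 genes in each of 9 libraries, by group; points are pools 1 to 3 of a group, horizontal lines are means and bars are the SD of 3 pools. In Csf1r, Adgre1, Cd68 and Mrc1 every control base pool lies below every vault pool of either genotype, whereas in Aif1 and the C1q chains the base pools spread across the range of the vault pools.

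Csf1, the ligand, was at 21.8, 18.6 and 20.0 FPKM in pools 1 to 3 of the control vault, at 22.6, 20.6 and 17.7 FPKM in those of the MCAGF8 vault and at 13.1, 12.5 and 18.3 FPKM in those of the control base. The vault groups overlapped, with means of 20.1 ± 1.62 and 20.3 ± 2.49 FPKM (SD, n = 3 pools each). The base pools were all below the control vault pools, with a mean of 14.6 ± 3.19 FPKM, but base pool 3 lay above MCAGF8 pool 3. Csf1 lies at chr3:107741048-107760469 in GRCm38.

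Il34, the other ligand of CSF1R, is not among the 9 genes and is given here for comparison with Csf1. It was at 1.98, 3.71 and 4.61 FPKM in the control vault, 6.76, 6.96 and 5.83 FPKM in the MCAGF8 vault and 2.57, 1.10 and 2.15 FPKM in the control base. The MCAGF8 pools were above all others. On the FPKM scale, which is per length, Csf1 was the more abundant ligand in all 9 libraries. Its level was 2.96 to 3.34 times that of Il34 in the MCAGF8 vault and 4.33 to 11.0 times in the control vault. In the control base it was 5.07 to 11.4 times. The ligands thus differed least in the MCAGF8 vault, whose pools also held more epidermal RNA than the control vault pools. Epidermal genes summed to 349 to 882 FPKM there, 9.43 to 85.5 FPKM in the control vault and 48.9 to 607 FPKM in the base. The part of epidermal RNA in the Il34 values was not tested.

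Csf1r, the receptor, was at 25.3, 31.9 and 27.4 FPKM in the control vault, 32.4, 46.8 and 28.6 FPKM in the MCAGF8 vault and 13.2, 10.6 and 16.2 FPKM in the control base. Its highest base pool was below its lowest vault pool, and MCAGF8 pool 2 stood above the other 8 libraries. Group means were 28.2 ± 3.36, 35.9 ± 9.59 and 13.3 ± 2.77 FPKM in this order (SD, n = 3 pools each). Csf1r lies at chr18:61100598-61132149 in GRCm38.

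Of the surface and lysosomal markers, Adgre1, which encodes the adhesion receptor F4/80, was at 10.2, 13.2 and 10.95 FPKM in the control vault, 10.2, 12.4 and 9.43 FPKM in the MCAGF8 vault and 5.82, 4.16 and 6.63 FPKM in the control base. Vault pools of the 2 genotypes were interleaved, and the base pools lay below all of them. Cd68, a lysosomal membrane glycoprotein, was at 15.8, 22.6 and 13.9 FPKM in the control vault, 19.6, 27.0 and 23.3 FPKM in the MCAGF8 vault and 11.5, 11.9 and 12.2 FPKM in the control base. Control vault pool 2 exceeded MCAGF8 pool 1, and the base pools were both the lowest and the closest to each other (SD 0.332 FPKM). Mrc1, the mannose receptor CD206 of scavenging macrophages, which some endothelium expresses too, was at 32.5, 31.9 and 21.3 FPKM in the control vault, 24.4, 21.9 and 30.2 FPKM in the MCAGF8 vault and 13.05, 13.4 and 9.43 FPKM in the control base. Again the vault groups overlapped and the base pools were lower than any of them. Adgre1 lies at chr17:57358691-57483527, Cd68 at chr11:69664213-69666153 and Mrc1 at chr2:14229392-14332057.

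Aif1, which encodes the actin-bundling protein IBA1, was at 18.9, 20.0 and 18.7 FPKM in the control vault, 17.0, 22.4 and 12.8 FPKM in the MCAGF8 vault and 41.3, 10.4 and 20.5 FPKM in the control base (chr17:35170991-35176068). Base pool 1 was the highest and base pool 2 the lowest of all 9 libraries, so the base group enclosed both vault groups.

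The C1q genes lie within chr4:136880129-136898803, all on the minus strand. C1qa was at 48.9, 66.9 and 69.3 FPKM in the control vault, 55.1, 88.1 and 49.4 FPKM in the MCAGF8 vault and 66.8, 22.6 and 53.0 FPKM in the control base. For C1qb the values were 65.5, 80.8 and 84.6 FPKM in the control vault, 60.4, 103 and 56.6 FPKM in the MCAGF8 vault and 87.6, 29.5 and 70.0 FPKM in the control base. For C1qc they were 55.7, 79.0 and 71.2, then 58.8, 88.2 and 51.1, then 61.9, 25.4 and 54.6 FPKM. MCAGF8 pool 2 was highest and base pool 2 lowest for each chain, and the groups overlapped. The chains kept nearly 1 ratio to each other: C1qb over C1qa was between 1.10 and 1.34, and C1qc over C1qa between 0.93 and 1.18, in all 9 libraries.

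The first comparison asked whether the ectodermal Fgf8b allele altered these genes in the vault. None of the 9 was called between the MCAGF8 and the control vault, and in none did the 3 pools of a group all lie beyond the 3 of the other, whereas 19.2% of the 18714 genes tested were separated in this way, in either direction. A gene was called when its p from limma's moderated linear model on log2(FPKM + 1) was under 0.05 before and under 0.1 after Benjamini-Hochberg adjustment over all genes tested, which 113 genes, 0.604%, met. No member reached an unadjusted p of 0.05, against 1186 of all genes. The 2 largest differences were those of Cd68, 0.42 on the log2 scale (SE 0.22, 95% interval -0.07 to 0.90, adjusted p = 0.896 by limma), and Csf1r, 0.32 (SE 0.23, interval -0.20 to 0.83, adjusted p = 0.969). For Csf1 the difference was 0.01 with an interval from -0.44 to 0.45, and for Adgre1, -0.09 with an interval from -0.59 to 0.41. The intervals of Aif1 and the C1q chains were wider, up to -1.09 to 0.75 for Aif1, and a change within them was not detectable with 3 pools per group. The median over the 9 genes was -0.08, against -0.01 over all genes, with 4 genes higher and 5 lower in the MCAGF8 vault. That split depends on scaling: with every library rescaled to the same FPKM sum, the median of all genes moved to 0.13, 8 of the 9 genes were higher, and still none was called.

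**Figure D2:**
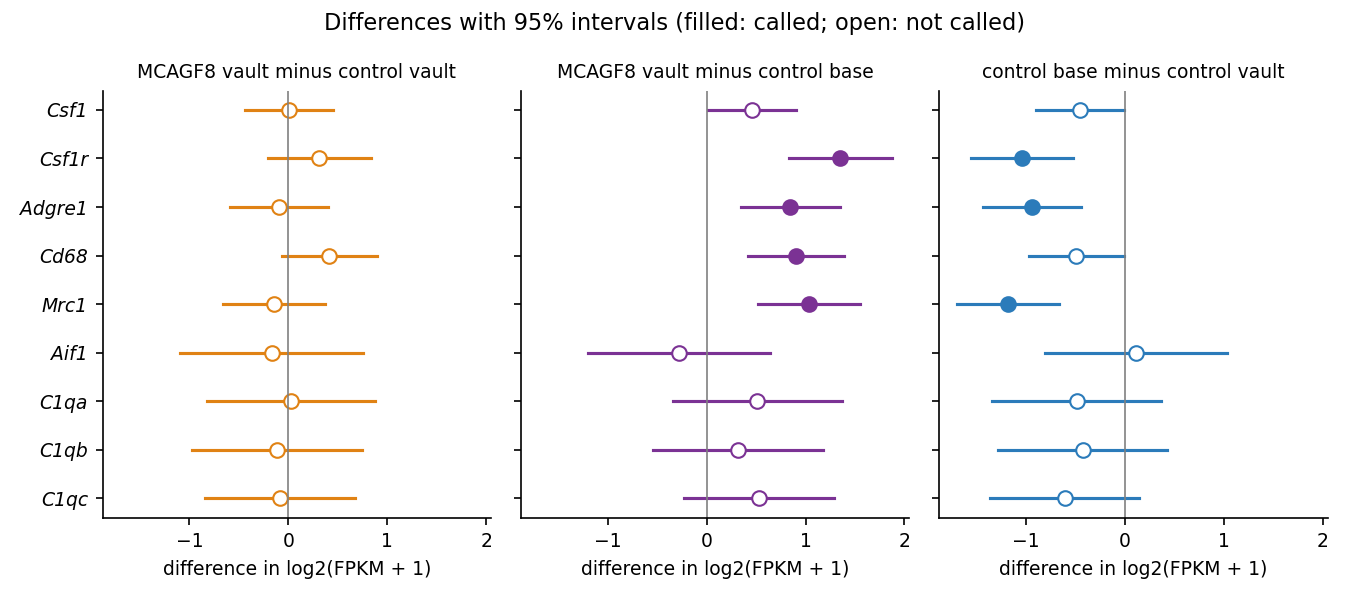
Differences in log2(FPKM + 1) (horizontal axis) of the 9 genes in the 3 comparisons, with 95% intervals from the limma fit; filled circles are called and open circles are not. In the left panel all 9 intervals include 0; Csf1r, Adgre1 and Mrc1 are filled in both comparisons with the control base, and Cd68 only in that with the MCAGF8 vault.

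The second comparison set the MCAGF8 vault against the control cranial base, which the study sampled as a baseline for hyaline cartilage. Of the 9 genes, 4 were called, all higher in the MCAGF8 vault, where 8.39% of all genes were called in either direction. The same 4 had every MCAGF8 pool above every base pool, a separation that 8.91% of all genes showed in this direction. Csf1r was 2.70-fold higher on mean FPKM and differed by 1.35 on the log2 scale (SE 0.23, adjusted p = 0.0122 by limma). Mrc1 was 2.13-fold higher (1.04, SE 0.23, adjusted p = 0.0346), Cd68 1.96-fold (0.90, SE 0.22, adjusted p = 0.0441) and Adgre1 1.93-fold (0.85, SE 0.22, adjusted p = 0.0634). Csf1, at 0.46 with an interval from 0.02 to 0.90, had an unadjusted p of 0.0439 in the limma fit, which adjustment took to 0.241. The C1q chains differed by 0.31 to 0.53 with adjusted p between 0.430 and 0.708, and Aif1 by -0.28 (adjusted p = 0.770). The median over the 9 genes was 0.53, against -0.07 over all genes.

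Csf1r stayed called whichever library was left out. Mrc1 was lost without MCAGF8 pool 1 or 3 (adjusted p = 0.129 and 0.132 by limma), and Cd68 without MCAGF8 pool 1, 2 or 3 (0.102, 0.149 and 0.133). Adgre1 was lost without control vault pool 1 or 3 (0.104 and 0.111), which enter only through the shared spread, and without MCAGF8 pool 1, 2 or 3 (0.199, 0.191 and 0.128).

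The third comparison was between the tissues of the control embryos. It shares its base pools with the second comparison and its vault pools with the first, so its values are not independent of theirs. Of the 9 genes, 3 were called, all lower in the base, where 3.06% of all genes were called in either direction, and 5 had every base pool below every control vault pool, as did 6.69% of all genes. Mrc1 in the base was 0.419 times its level in the control vault, a log2 difference of -1.18 (SE 0.23, adjusted p = 0.0464 by limma). Csf1r was at 0.473 times (-1.04, SE 0.23, adjusted p = 0.0662) and Adgre1 at 0.484 times (-0.94, SE 0.22, adjusted p = 0.0795). Cd68 and Csf1, the other genes without overlap, differed by -0.49 and -0.45 with adjusted p of 0.379 and 0.375. Aif1 differed by 0.11 and the C1q chains by -0.43 to -0.61, none of them called, and the median over the 9 genes was -0.49 against 0.07 over all genes.

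These calls held in fewer alternatives: at the same thresholds, Csf1r, Mrc1 and Adgre1 stayed called in 14, 14 and 11 of 21 alternative fits, where against the MCAGF8 vault Csf1r, Mrc1, Cd68 and Adgre1 stayed called in 21, 19, 18 and 14. None of the 3 stayed called when only the libraries of both control tissues were fitted or when the variance was not moderated, and Mrc1 was lost when libraries were rescaled to the same FPKM sum (adjusted p = 0.139). Csf1r was lost without control vault pool 1, 2 or 3 (adjusted p = 0.163, 0.221 and 0.216 by limma) or MCAGF8 pool 1 (0.133). Adgre1 was lost without control vault pool 1, 2 or 3 (adjusted p = 0.188, 0.265 and 0.251) and without MCAGF8 pool 1, 2 or 3 (0.164, 0.106 and 0.131). Mrc1 was lost without control vault pool 1 or 2 (0.167 and 0.166) and without base pool 3 (0.107).

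The order of the groups was therefore the same for Csf1r, Adgre1, Cd68 and Mrc1, with the control base lowest and the vault groups, which did not differ beyond their spread, above it. For Csf1 the base was lowest without a call, and for Aif1 and the C1q chains no order held beyond the spread.

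Within the control base, the members moved apart from each other. Relative to Csf1r in the same library, Aif1 was at 0.69 ± 0.06 in the control vault and 0.48 ± 0.04 in the MCAGF8 vault (SD, n = 3), but at 3.13, 0.98 and 1.27 in base pools 1 to 3. C1qa over Csf1r was 2.19 ± 0.31 in the control vault and 1.77 ± 0.10 in the MCAGF8 vault, and the base pools were at 5.05, 2.13 and 3.28. Adgre1 over Csf1r, by contrast, lay between 0.39 and 0.44 in the base and at 0.41 ± 0.01 in the control vault, and at 0.30 ± 0.03 in the MCAGF8 vault. Cd68 over Csf1r was at 0.61 ± 0.10 in the control vault and 0.67 ± 0.13 in the MCAGF8 vault, and at 0.87, 1.13 and 0.75 in base pools 1 to 3. Mrc1 over Csf1r overlapped between the groups. So the base pools kept the ratio of F4/80 to the CSF1 receptor found in the control vault. All 3 had higher ratios of Aif1 and of Cd68 to that receptor than any control vault pool. The exons of Aif1, C1qa and Cd68 cover 1532, 1040 and 1257 bases, those of Adgre1 3238 and those of Csf1r 5774. FPKM in the base pools moved with exon length, as described below, and the part of length in these ratios was not tested.

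**Figure D3:**
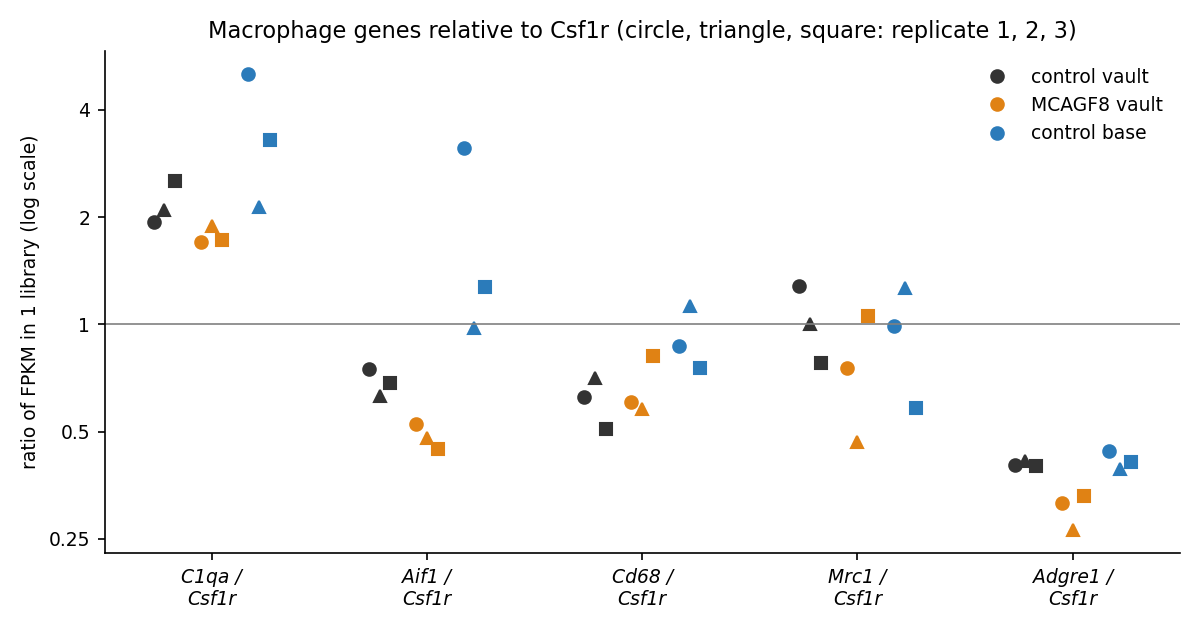
Ratio of the FPKM of 5 genes to that of Csf1r in the same library (vertical axis, log scale), by group; points are single pools. Base pool 1 has the highest ratio for C1qa (5.05) and Aif1 (3.13). The Adgre1 ratio is at most 0.33 in the 3 MCAGF8 pools and at least 0.39 in the other 6 libraries. The Aif1 ratio (at most 0.53 against at least 0.63) and the C1qa ratio (at most 1.88 against at least 1.93) are separated in the same way. Csf1r is common to these ratios, and the separations were not tested.

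Over the 9 libraries, on log2(FPKM + 1), the C1q chains correlated with each other at r = 0.96 to 0.98, and Csf1r with Adgre1 at 0.95, with Cd68 at 0.89 and with Mrc1 at 0.73. C1qc correlated with Adgre1 at 0.82, with Csf1r at 0.75 and with Aif1 at 0.61. Aif1 correlated with C1qb at 0.77 and with Csf1r at 0.002. These are descriptions over 9 points that include the differences between groups and the scaling of each library.

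The 9 genes differ in transcript length. In the GENCODE annotation of GRCm38, the exons of Csf1r, Csf1 and Mrc1 cover 5774, 5281 and 6371 bases and those of Adgre1 3238 bases, whereas those of C1qa, C1qb, C1qc, Aif1 and Cd68 cover 1040, 1088, 1931, 1532 and 1257 bases. Length moved with the libraries across all genes: against the control vault mean, the median difference in base pool 1 was 0.52 for the 4220 tested genes with exons under 1500 bases and -0.16 for the 10653 genes of 3000 bases and over. In base pool 2 the same medians were -0.21 and 0.11, and in base pool 3 0.22 and 0.11. When the trend with exon length was taken out of each library, an alternative chosen after seeing the data, 7 of the 9 genes were called higher in the MCAGF8 vault than in the base in place of 4. Those added were C1qa (0.85, adjusted p = 0.0721 by limma), C1qc (0.80, adjusted p = 0.0799) and Csf1 (0.52, adjusted p = 0.0923), and Aif1 then differed by 0.02. C1qc was also called with libraries rescaled to the same FPKM sum. With the trend removed, Csf1r, Mrc1 and Adgre1 were called lower in the base than in the control vault as before, and between the vaults again none was called. The part of length in the values as deposited was not tested beyond this.

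**Figure D4:**
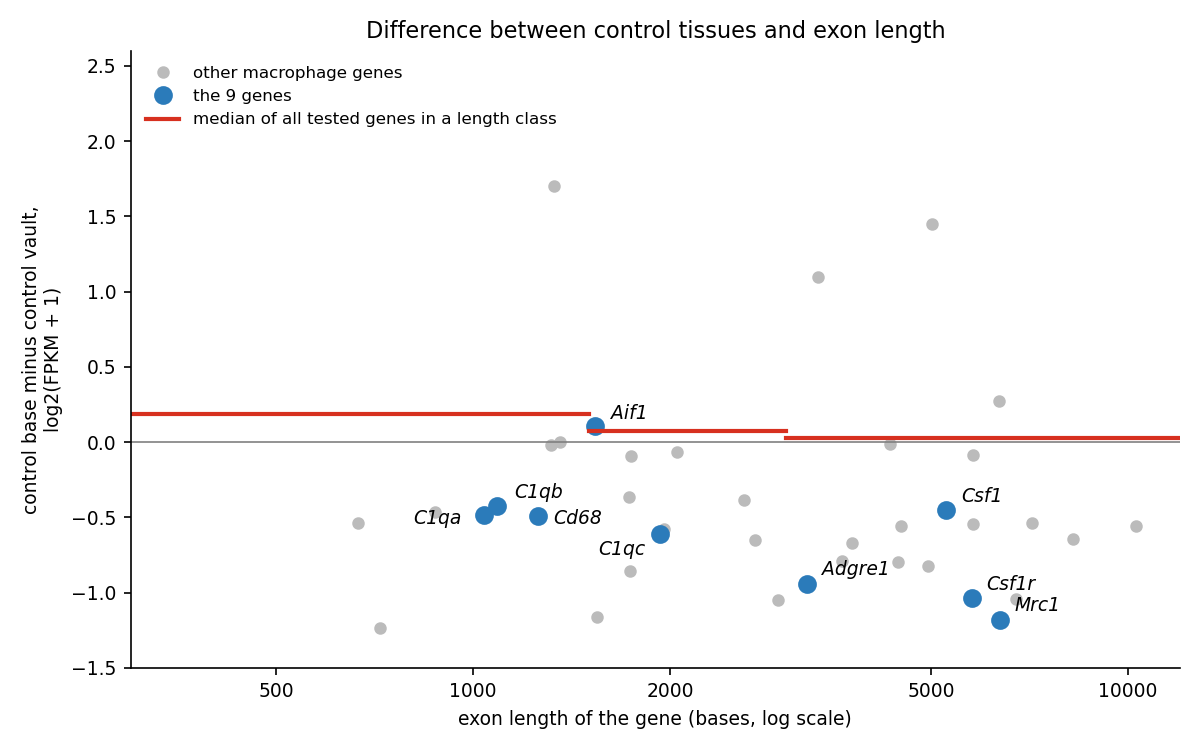
Difference between control base and control vault in log2(FPKM + 1) (vertical axis) against exon length in bases (horizontal axis, log scale) for the 9 genes (blue) and other macrophage genes (grey); red lines are medians of all tested genes in 3 length classes, 0.19, 0.07 and 0.03. Csf1r, Mrc1 and Adgre1, each over 3000 bases, lie at -0.94 or lower, and Aif1 and the C1q chains, with 1040 to 1931 bases, between -0.61 and 0.11. Csf1, with 5281 bases, lies at -0.45 and Cd68, with 1257 bases, at -0.49.

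A wider list of 35 other macrophage genes held 34 with an identifier and 31 above the filter on low values, a mean of at least 0.5 FPKM. Between the vaults none of the 31 was called, where 0.604% of all genes were, and 4 had an unadjusted p under 0.05, as did 1186 of the 18714 genes tested. Against the base, 7 were called in the MCAGF8 vault (6 higher and 1 lower) beside 8.39% of all genes, and 2 in the control vault comparison, both lower in the base, beside 3.06%. Their medians were -0.12, 0.44 and -0.54 in the 3 comparisons, against -0.01, -0.07 and 0.07 over all genes. Many of these calls rested on single libraries, and beside each stands the number of the same alternative fits in which it held.

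Among regulators, Spi1, which encodes PU.1, was at 9.76, 9.89 and 13.8 FPKM in the control vault, 7.35, 16.1 and 6.58 FPKM in the MCAGF8 vault and 8.30, 3.51 and 9.63 FPKM in the base, and was not called. Maf, a transcription factor of macrophages and other cells, was called between the MCAGF8 vault and the base only (0.91, SE 0.17, adjusted p = 0.0187 by limma) and stayed called in 21 of 21 alternative fits. Il34, whose values stand above, was called higher in the MCAGF8 vault than in the base (1.39, SE 0.30, adjusted p = 0.0302), and its difference of 0.81 between the vaults was not called (adjusted p = 0.574), although the pools did not overlap. Its call against the base held in 18 of 20 alternative fits and was lost without MCAGF8 pool 1 (adjusted p = 0.128 by limma) or 2 (0.105). The part of epidermal RNA in these differences of Il34 was not tested.

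Among receptors, Cx3cr1, the fractalkine receptor, was at 17.6, 20.8 and 18.6 FPKM in the control vault, 20.9, 28.9 and 21.03 FPKM in the MCAGF8 vault and 13.4, 9.88 and 14.9 FPKM in the base. It was called between the MCAGF8 vault and the base (0.85, adjusted p = 0.0534 by limma) and not between the vaults (0.29, adjusted p = 0.969). The call held in 16 of 21 alternative fits and was lost without MCAGF8 pool 1, 2 or 3 (adjusted p = 0.141, 0.169 and 0.114 by limma). Stab1, a scavenger receptor of macrophages and sinusoidal endothelium, was called in the same comparison (0.98, SE 0.19, adjusted p = 0.0180 by limma) and stayed called in 21 of 21 alternative fits. It was at 85.5, 80.0 and 82.1 FPKM in the control vault, 103, 131 and 99.6 FPKM in the MCAGF8 vault and 68.2, 48.2 and 52.3 FPKM in the base. The MCAGF8 pools thus also lay above all control vault pools, a difference of 0.42 that was not called (adjusted p = 0.786 by limma). Such a separation of the vaults, in either direction, was seen in 19.2% of all genes. Lyve1, a hyaluronan receptor of macrophages and lymphatic endothelium, was at 20.3, 26.8 and 25.5 FPKM in the control vault, 16.4, 20.3 and 16.6 FPKM in the MCAGF8 vault and 14.4, 8.84 and 10.7 FPKM in the base, and was called lower in the base than in the control vault (-1.05, adjusted p = 0.0541 by limma). That call held in 12 of 21 alternative fits and was lost without control vault pool 1, 2 or 3, MCAGF8 pool 1 or 3, or base pool 3 (adjusted p from 0.101 to 0.213). Cd163, a haemoglobin scavenger receptor, was below the filter, at 0.06 to 0.47 FPKM in all libraries, as were Timd4 and Vsig4.

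Tyrobp, the adaptor DAP12, was at 72.7, 87.4 and 100 FPKM in the control vault, 46.5, 85.3 and 53.5 FPKM in the MCAGF8 vault and 101, 24.0 and 83.7 FPKM in the base, a pattern of base pools like that of the C1q chains, with no call. Ptprc, the pan-leukocyte gene CD45, was at 0.71 to 2.59 FPKM with no call. F13a1, coagulation factor XIII A, was at 44.7, 52.9 and 53.2 FPKM in the control vault, 35.8, 37.1 and 40.6 FPKM in the MCAGF8 vault and 21.9, 29.2 and 20.97 FPKM in the base. It was called in both comparisons with the base (0.65, adjusted p = 0.0743 by limma, for the MCAGF8 vault over the base, and -1.05, adjusted p = 0.0249, for the base against the control vault), and its 3 groups did not overlap. The call for the MCAGF8 vault held in 10 of 21 alternative fits and was lost without any 1 of the 6 vault pools or without base pool 1 or 3 (adjusted p from 0.112 to 0.216), and that between the control tissues held in 17 of 21 and was lost without control vault pool 2 or 3 (0.111 and 0.135). Laptm5, a lysosomal protein of blood cells, was called between the MCAGF8 vault and the base (0.86, adjusted p = 0.0880 by limma), a call that held in 10 of 21 alternative fits and was lost without any 1 of the 6 vault pools or without base pool 3 (adjusted p from 0.125 to 0.236). Cbr2, a carbonyl reductase not limited to macrophages, went the other way, at 5.12, 6.74 and 5.97 FPKM in MCAGF8 pools 1 to 3 and 72.8, 11.7 and 132 FPKM in the base pools (-2.85, SE 0.72, adjusted p = 0.0541 by limma). Its call held in 13 of 21 alternative fits and was lost without MCAGF8 pool 1, 2 or 3 or base pool 1 or 3 (adjusted p from 0.137 to 0.190).

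C1q works with the proteases C1r and C1s, and 7 partner genes were examined. In the comparison of MCAGF8 vault and base, 3 were called, all higher in the vault, where 8.39% of all genes were called in either direction. They were Serping1, the C1 inhibitor (1.10, SE 0.18, adjusted p = 0.0113 by limma), C1ra (1.03, adjusted p = 0.0754) and C2 (1.03, adjusted p = 0.0855). Serping1 was at 96.4, 104 and 102 FPKM in the control vault, 103, 104 and 78.4 FPKM in the MCAGF8 vault and 51.0, 36.7 and 43.5 FPKM in the base, and was also called between the control tissues (-1.20, adjusted p = 0.0160). C1s1, at 3.01 to 13.2 FPKM, and Cd93, at 13.4 to 28.0 FPKM, were not called. C3, at 0.46 to 1.11 FPKM, and C4b, at 0.09 to 2.39 FPKM, were low in all libraries. None of the 7 was called between the vaults, where 0.604% of all genes were. Both calls of Serping1 held in 21 of 21 alternative fits. C1ra and C2 each stayed called in 9 of 20: C1ra was lost without any library but base pools 2 and 3 (adjusted p from 0.113 to 0.2204 by limma), and C2 without any but MCAGF8 pool 1 and base pool 2 (0.112 to 0.259).

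Genes with a pattern most like that of the macrophage genes were sought by Pearson r over the 9 libraries with the average of the 8 members other than Csf1, each scaled, among 15341 genes with a mean of at least 2 FPKM. The 12 highest were Sash3 (r = 0.99), Mfap4, Nfe2l2, Gypc, Fcgr3, Pld4, Lynx1, Plekho2, Laptm5, S1pr2, Gm525 and P2ry6 (r = 0.96). Fcgr3 and Laptm5 are on the macrophage list, and Sash3, an adaptor of haematopoietic cells, was at only 1.28 to 3.66 FPKM, while Mfap4, a microfibril protein of connective tissue, reached 318 to 648 FPKM. The r of this average with Csf1 was 0.69. The 5 genes most like Csf1 itself were Aifm2 (r = 0.98), Wif1, Msx1, Iqsec2 and Adcy5 (r = 0.95), of which Msx1 and Wif1 are genes of cranial mesenchyme and Wnt inhibition. These are descriptions over 9 libraries without a test.

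The tissues contained other cells whose genes moved with the groups. Summed over each list, 8 monocyte and neutrophil genes ranged from 15.6 to 60.3 FPKM in the control vault, 29.5 to 34.0 FPKM in the MCAGF8 vault and 111 to 501 FPKM in the base, the last in base pool 1. S100a8, a neutrophil and monocyte gene, was at 216, 44.3 and 55.4 FPKM in the base pools and at no more than 22.0 FPKM in any vault pool, and was called in both comparisons with the base (-2.69, adjusted p = 0.0341 by limma, and 2.61, adjusted p = 0.0737). The call against the MCAGF8 vault held in 19 of 21 alternative fits and was lost without MCAGF8 pool 1 (adjusted p = 0.147), and that between the control tissues held in 10 of 21 and was lost without any 1 of the 6 vault pools or base pool 3 (0.110 to 0.215). Base pool 1 was also the pool highest in Aif1, and the part of these cells in that value was not tested.

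Base pool 2, the lowest for 7 of the 9 genes, was the pool rich in cartilage RNA. Without base pool 2, the counts of members called were 4 against the MCAGF8 vault and 3 against the control vault, as with it, and they were the same without base pool 1. The C1q chains then differed from the MCAGF8 vault by -0.15 to 0.14 without base pool 2 and by 0.62 to 0.82 without base pool 1, with no call in either. Osteoclast genes summed to 192 to 321 FPKM in the control vault, 131 to 223 FPKM in the MCAGF8 vault and 65.7 to 169 FPKM in the base, mostly from Ctsk and Acp5, which other cells express as well. The osteoclast fusion genes Ocstamp and Dcstamp, with Oscar and Calcr, did not exceed 0.754 FPKM in any of the 9 libraries. Over the same libraries, Itgb3 was at 3.16 to 6.66 FPKM, Tnfrsf11a at 0.87 to 1.78 FPKM and Atp6v0d2 at 0.025 to 1.36 FPKM. Mmp9 went the other way from the sums between the vaults, without a call (1.03, adjusted p = 0.937 by limma). It was at 12.9, 3.41 and 14.9 FPKM in the control vault and 14.7, 36.7 and 13.1 FPKM in the MCAGF8 vault. None of 5 microglial genes was called in any comparison. P2ry12 was at 1.505 to 2.16 FPKM, Gpr34 at 1.37 to 3.90 FPKM and Sall1 at 0.06 to 5.38 FPKM over the 9 libraries. Siglech was at 0.64, 0.50 and 0.54 FPKM in the control vault, 0.98, 1.26 and 1.51 FPKM in the MCAGF8 vault and 0.63, 0.90 and 0.47 FPKM in the base, with no overlap between the vaults (0.53, adjusted p = 0.641 by limma). Tmem119, which osteoblasts express too, was at 262, 192 and 333 FPKM in the control vault, 97.7, 127.8 and 82.6 FPKM in the MCAGF8 vault and 121, 48.6 and 182 FPKM in the base, again with no overlap between the vaults (-1.33, adjusted p = 0.436).

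**Figure D5:**
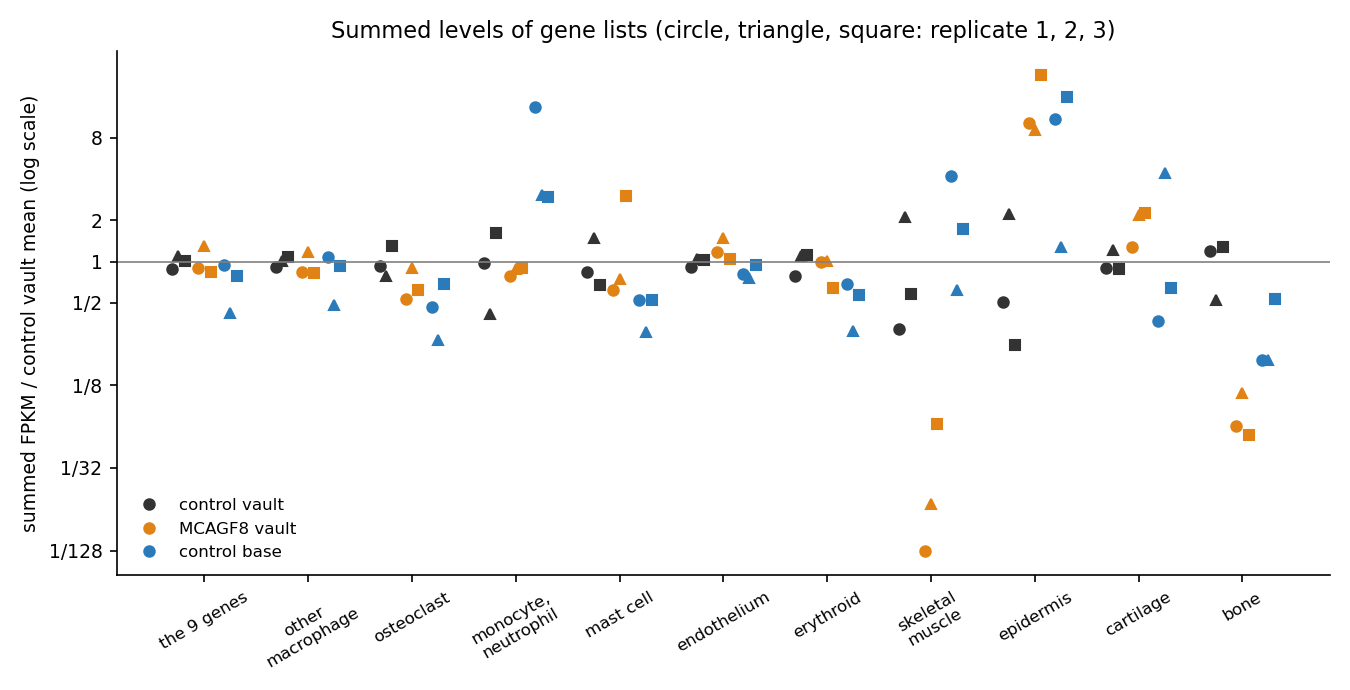
Summed FPKM of gene lists in each library divided by the mean of the control vault (vertical axis, log scale); points are single pools, by group. The sum of the 9 genes, 140 to 430 FPKM, stays near the line in all libraries but base pool 2, whereas muscle, bone, epidermis, cartilage and neutrophil lists spread far more widely. The C1q chains weigh most in that sum, so it does not show the lower levels of Csf1r, Adgre1 and Mrc1 in all base pools.

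The summed level of the 9 genes, in which the C1q chains weigh most, ran from 295 to 365 FPKM in the control vault, 279 to 430 FPKM in the MCAGF8 vault and 140 to 314 FPKM in the base. Between the vaults, over which this sum overlapped, 8 bone genes summed to 1348 to 3282 FPKM in the control and 140 to 284 FPKM in MCAGF8. Of these, 5 of 8 were called lower, as were 7 of 8 skeletal muscle genes, beside 0.604% of all genes called in either direction. Epidermal sums were higher in MCAGF8. In bulk tissue, pools that held different cells and cells that differed in expression cannot be told apart. Endothelial genes summed to 315 to 364 FPKM in the control vault, 358 to 513 FPKM in the MCAGF8 vault and 263 to 326 FPKM in the base. Against the base, 3 of 8 were called higher in the MCAGF8 vault, as Stab1 and Mrc1 were, beside 8.39% of all genes. Between the control tissues, all 8 endothelial genes were lower in the base, with a median of -0.11 against 0.07 over all genes. Of the 8, 1 was called, Tek (-0.95, adjusted p = 0.0334 by limma), beside 3.06% of all genes. Tek and Cdh5 (-0.59, not called) had every base pool below every control vault pool, as did 6.69% of all genes. Brain neuron genes summed to 92.9 to 172 FPKM in the control vault, 145 to 197 FPKM in the MCAGF8 vault and 240 to 945 FPKM in the base, and erythroid genes to 12560 to 17760, 10350 to 16242 and 5032 to 11057 FPKM. Mast cell genes summed to 46.3 to 102 FPKM in the control vault, 42.7 to 205 FPKM in the MCAGF8 vault and 21.2 to 35.9 FPKM in the base, and Cpa3 stood at 113 FPKM in MCAGF8 pool 3 and at 46.7 FPKM in control vault pool 2. The part of any of these cells in the differences of the 9 genes was not tested.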

How the data were processed

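RNAseq libraries were analysed as 3 groups of 3, each library a pool of 3 tissue samples. Single-end reads from stranded mRNA libraries were mapped by the authors with gSNAP, and the deposited table holds the FPKM that Cufflinks gave per Ensembl gene. The build, the annotation and the tools' versions were not given in the sources used here.

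In the deposited table of 43611 rows, 63 rows repeated an identifier and were added to its other row, and 9 genes with 17 placeholder cells were left out. None of the 9 macrophage genes was affected. Of 43548 identifiers, 42384 were given a symbol from the gene tables of the reference. Values were analysed as log2(FPKM + 1) without rescaling, so the fold change of a low gene is understated, and the 18714 genes with a mean of at least 0.5 FPKM entered a two-sided limma fit (version 3.58.1, R 4.3.3) with 1 mean per group and a moderated variance with trend. Fold ratios are ratios of mean FPKM. The p-values measure the spread between pools, which averages over embryos. Without read counts no counting interval is given.

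The 9 genes and all lists were chosen with earlier results of these data known. Named genes were the 9 members, other macrophage genes called in any comparison (up to 8 per comparison) or fixed by name (Il34, Spi1, Cx3cr1, Tyrobp, Cd163, Lyve1, Ptprc), the complement partners, and the genes most like the members by Pearson r. A result on 1 gene of the macrophage list is not reported here. Irf8 and Tubb3 were not analysed here. Exon lengths and gene positions came from GENCODE annotation of GRCm38, which may differ from the authors' annotation, and promoters from RefSeq on GRCm38.p6. Lists were described by counts, medians and sums, without a set test.

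The alternatives were pseudocounts of 0.1 and 0.01, no filter or a mean of at least 5 FPKM, quantile normalization, rescaling to an equal FPKM sum or a common median, the highest of repeated rows, a fit to both groups only, a replicate block, no moderation, adjusted p under 0.05, unadjusted p alone, each library left out, and, added after seeing the data, removal of a trend with exon length (loess). No pairing by replicate number was seen: correlations of deviations between same-numbered libraries ran from -0.549 to 0.37. Between differently numbered libraries they ran from -0.482 to 0.563. Such correlations cannot exclude that pools share embryos. Other software was matplotlib 3.10.9, numpy 2.4.6, pandas 2.3.3 and Python 3.11.15.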

Additional observations from a re-analysis of the deposited data

How the results depend on the processing

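Between the vaults 0 of the 9 genes were called under every alternative and with any library left out, and of the 31 other macrophage genes 4 passed only at an unadjusted p under 0.05. Of all genes, 113 were called there in the main setting and 0 to 1186 under the alternatives.

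Against the MCAGF8 vault, where 4 of the 9 genes were called in the main setting, removing the exon length trend gave 7, and leaving out 1 library gave 1 to 4. C1qc was also called with an equal FPKM sum. Adgre1 was lost with both groups only (adjusted p = 0.184 by limma) and at adjusted p under 0.05 (0.0634). The 7 other macrophage genes called became 11 with an equal FPKM sum, 3 with both groups only, 3 at adjusted p under 0.05, 13 at unadjusted p under 0.05, 12 with the length trend removed, and 2 to 12 with 1 library left out. Of all genes, 1571 were called and 559 to 4580 under the alternatives, the highest without base pool 2.

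Between the control tissues, where 3 of the 9 were called, the count was 0 with both groups only, 0 without moderation, 1 at adjusted p under 0.05 and 5 at unadjusted p under 0.05, and 0 to 3 with 1 library left out. The 2 other macrophage genes called became 5 with quantile normalization, 4 with an equal FPKM sum, 4 with a common median, 0 with both groups only, 1 at adjusted p under 0.05, 14 at unadjusted p under 0.05, 7 with the length trend removed, and 0 to 5 with 1 library left out. Of all genes, 573 were called and 108 to 2396 under the alternatives.

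With a replicate block, 3 of the 9 genes were called against the MCAGF8 vault and 0 between the control tissues, and 4 and 1 of the other macrophage genes. The numbers are not known to pair the libraries, so this is only another fit. In the comparisons in which it was called, no macrophage gene, member or other, changed direction under an alternative. Between the vaults, where none was called, the sign of the difference changed under 1 or more alternatives for 7 of the 9 members, all but Csf1r and Cd68. The cause of the changes was not tested, except that fits with fewer libraries have fewer degrees of freedom. The main limits are 3 pools per group, unknown depth, uneven base pools and FPKM that moved with exon length.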
